A study of Mus musculus with 4 samples.

Results

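The genes described here are the histone genes of the mouse clusters HIST1, HIST2, HIST3 and HIST4, taken as every row of the deposited tables whose symbol starts with one of those names. There were 38 of them. All 38 were among the 3112 genes listed at the transcription start site (TSS), and 33 were among the 3030 genes listed at the transcription end site (TES). By type, 3 encode the linker histone H1, 10 H2A, 10 H2B, 7 H3 and 8 H4. By cluster, as named in the symbol, 28 belong to HIST1 on chromosome 13, 7 to HIST2 on chromosome 3, 2 to HIST3 on chromosome 11 and 1 to HIST4 on chromosome 6. GENCODE M21 calls 36 of them protein-coding. The remaining ones, Hist1h2al and Hist3h2bb-ps, are annotated as pseudogenes.

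Replication-dependent histone genes supply the nucleosome proteins that a cell needs while it copies its DNA. They are short, nearly all lack introns, and their mRNA ends just behind a conserved stem-loop instead of a poly(A) tail. The stem-loop is bound by SLBP, and the U7 small nuclear ribonucleoprotein, which contains Lsm11, positions the cut. A poly(A)-tailed form is known for some of these genes. Serine 2 phosphorylation (Ser2P) of the carboxy-terminal domain of RNA polymerase II (Pol II) accumulates as the polymerase moves through a gene.

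The measurements come from native elongating transcript sequencing (mNET-seq) of B16F10, an established mouse melanoma line. In this assay the RNA held by immunoprecipitated Pol II is sequenced. Control cells (genotype WT in the labels) were set against Carm1 KO cells (below also the knockout), which lack the arginine methyltransferase Carm1. Each kind of cell gave 1 library with an antibody against Ser2P and 1 with clone 8WG16 against the carboxy-terminal domain, each from 3 sets of cells pooled after the nuclease step. How the knockout was made, and whether it is 1 clone, is not given in the sources used here. The authors' tables hold 2 Ser2P ratios per gene, 1 for each kind of cell. The headers call it a fraction, but it exceeds 1 at many genes, and what it was divided by is not given in the sources used here. With 1 value per gene and condition there is no replicate error and no test, and every difference below describes these libraries only.

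Of the 9 melanocytic markers looked for, 6 were listed (Tyr, Tyrp1, Pmel, Mlana, Sox10 and Mc1r), while 0 of 5 markers of blood, epithelial, endothelial and fibroblast cells were. A listed ratio is not a level of expression, so this checks the label only in part. Carm1 itself was not analysed here. The libraries' depth is unknown.

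The 3′ stem-loop is shown first, because it marks where these transcripts end. A search of the GENCODE M21 transcripts for its consensus, on the transcript strand, found it in 30 of the 38 histone genes. Among other genes of the tables that could be matched to the annotation, 5 of 3033 (0.165%) held it. The 16 bases were written with the 4 bases of the loop in capitals. The first form below was the most frequent, in 16 genes: 3 of H1, 6 of H2A, 4 of H2B and 3 of H3. The second was carried by 4 H4 genes (Hist1h4c, Hist1h4f, Hist1h4h and Hist4h4), the third by Hist1h2bb, Hist1h2bk, Hist1h3c and Hist1h3e, and the fourth by Hist1h4i and Hist2h4. The last form belongs to Hist1h4b alone, the gene with the largest TES change.
form of 16 genes: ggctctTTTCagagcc
form of 4 H4 genes: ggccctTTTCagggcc
form of 2 H2B and 2 H3 genes: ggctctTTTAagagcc
form of 2 H4 genes: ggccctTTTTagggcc
Hist1h4b: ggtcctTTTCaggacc
Single genes carried 3 further forms: Hist1h4a, Hist1h3g and Hist2h2ac. In all 8 H4 genes the stem differed from the one that the other types with a match shared. No match was found in the annotated transcripts of Hist1h2af, Hist1h2ah, Hist1h2al, Hist1h2bc, Hist2h2bb, Hist2h2be, Hist2h3b and Hist3h2bb-ps. A missing match says only that these letters are not in the annotated transcript.

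At the TSS, the ratio of the histone genes in control cells had a median of 0.122 and ran from 0.0234 at Hist1h2ag to 0.574 at Hist1h2ad. Over all listed genes the median was 0.0809, and 29 of the 38 histone genes lay above it. In Carm1 KO cells the median was 0.166 over all genes, and 28 histone genes lay above that. Among the types the control medians were 0.0905 for H1, 0.109 for H2A, 0.110 for H4, 0.139 for H3 and 0.145 for H2B. The ranges overlapped throughout. H2B ran from 0.0563 to 0.202, H4 from 0.0680 to 0.243 and H3 from 0.0935 to 0.234.

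The TES showed the larger departure. The control median there was 0.221 for the 33 histone genes and 1.71 for all listed genes. In control cells 32 of the 33 histone genes fell below 1.07, the lower quartile of all genes, and in the knockout 32 fell below the corresponding 1.99. The exception in both was Hist1h2bc. H4 genes were lowest, with a control median of 0.147 and a range from 0.0923 at Hist1h4c to 0.304 at Hist1h4i. H2A genes had a median of 0.227, H2B genes 0.236 and H3 genes 0.304. The 3 H1 genes were not analysed at the TES.

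**Figure D1:**
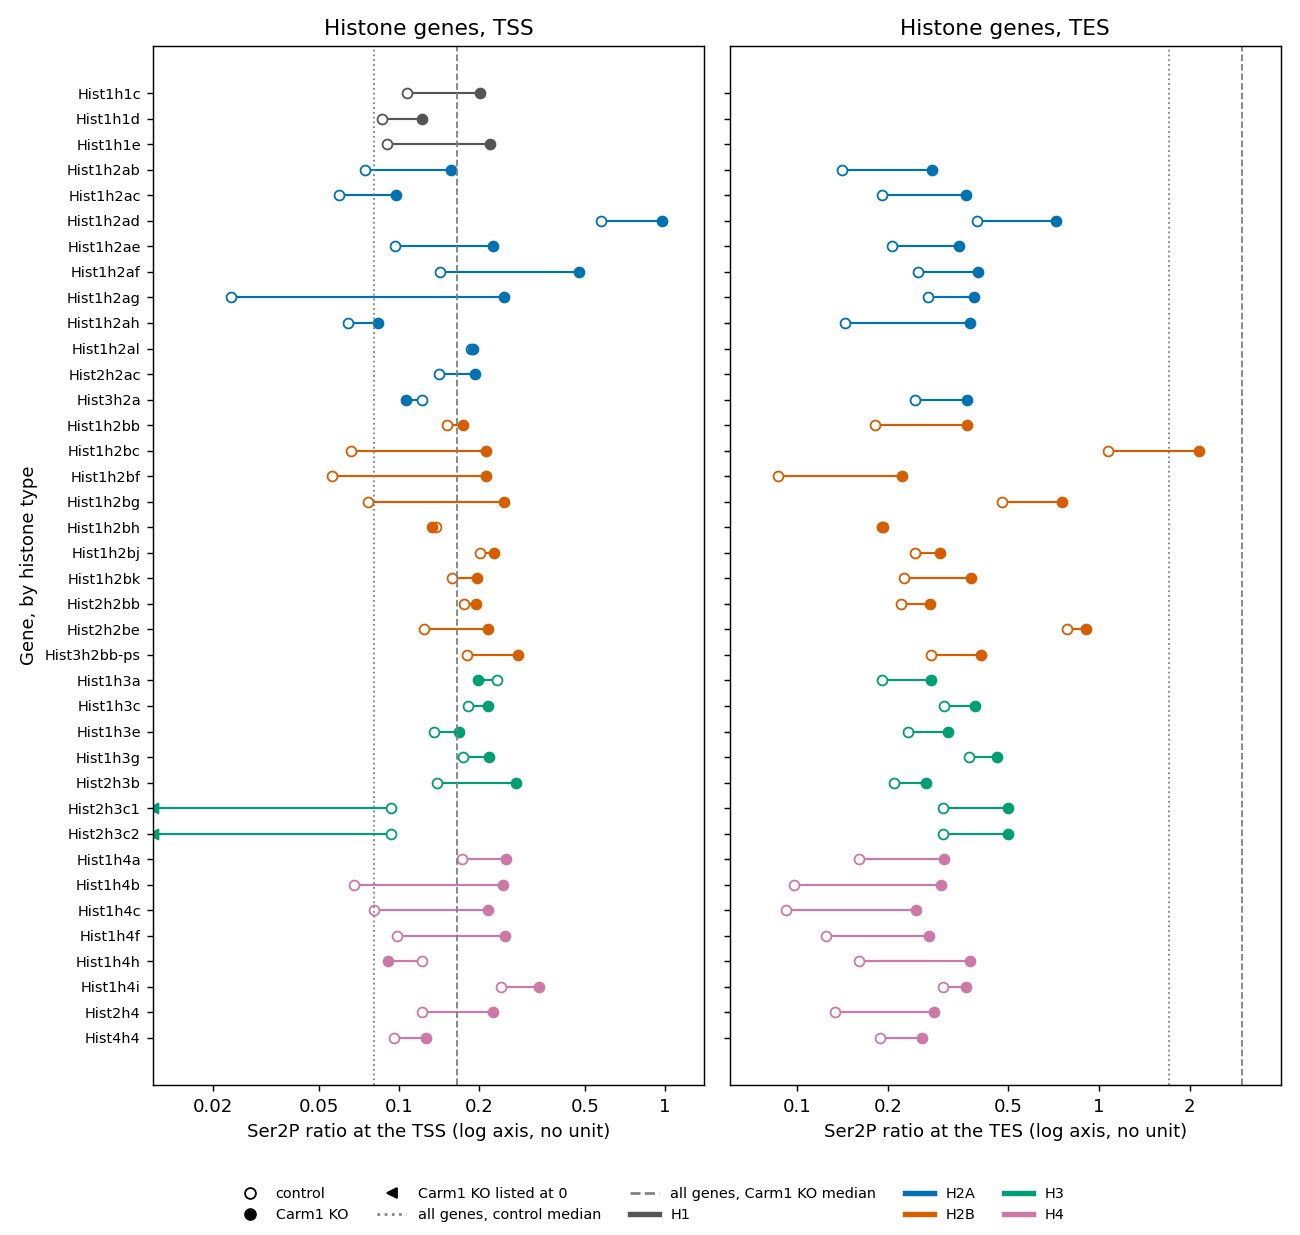
Ser2P ratio of each histone gene at the TSS (left) and TES (right) on log axes, with open points for control, filled points for Carm1 KO and triangles for Carm1 KO values listed at 0; colours give the histone type and grey lines the medians of all genes (left 0.0809 and 0.166, right 1.71 and 2.99). At the TES all points but those of Hist1h2bc lie far left of both grey lines, while at the TSS they lie around them.

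The ratios at the start and the end lay close together in these genes. The TES ratio divided by the TSS ratio, called the step here, had a median of 1.53 in control and 1.53 in the knockout over the 31 histone genes above 0 at both ends in both conditions. Over all 2775 such genes it was 19.5 in control and 15.7 in the knockout. The TES ratio exceeded the TSS ratio in 28 of 31 histone genes in control cells, against 97% of all genes. In Carm1 KO cells it was again higher in 28 of 31, against 93.8%. The 3 control exceptions were Hist1h2ad (TSS 0.574, TES 0.396), Hist1h3a (0.234 and 0.191) and Hist1h4a (0.172 and 0.160). By type, the median control step was 1.26 in H4, 1.48 in H2B, 1.70 in H3 and 2.08 in H2A genes.

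**Figure D2:**
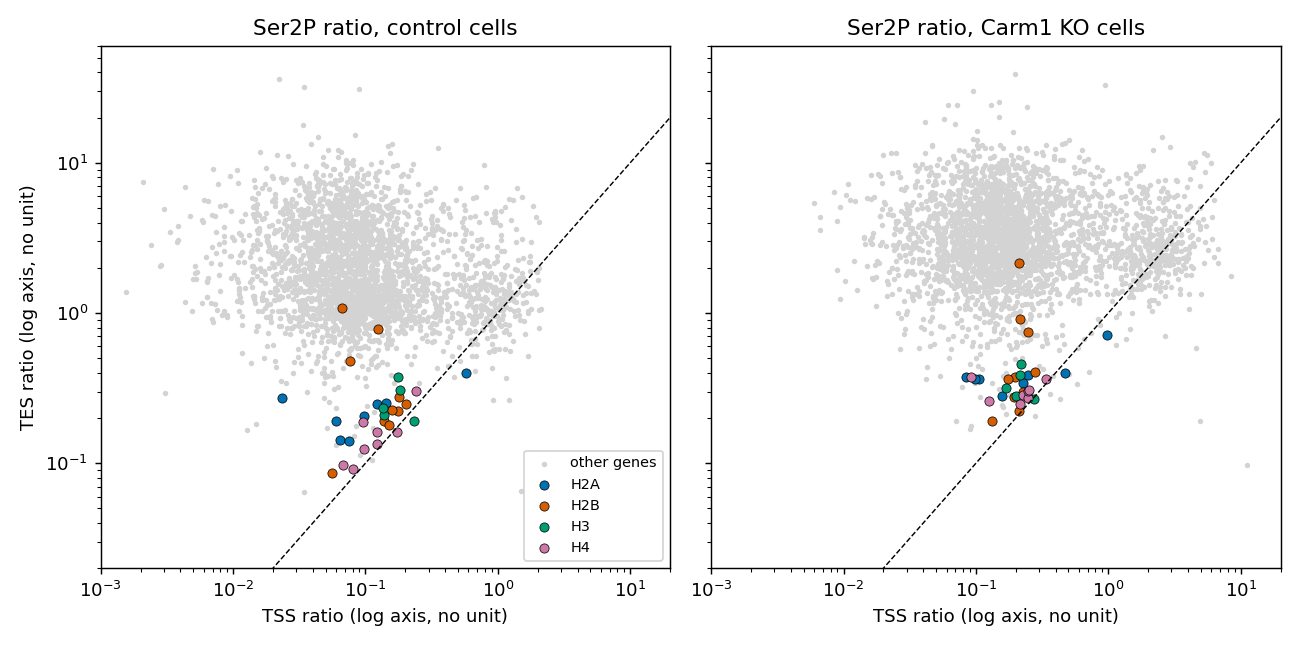
TES ratio against TSS ratio for each gene above 0 at both ends, in control (left) and the knockout (right), both axes log; grey points are other genes, coloured points histone genes by type, and the dashed line marks equal ratios. Most histone genes lie near the dashed line, with a median step of 1.53 in both panels, and Hist1h2bc, Hist1h2ag, Hist2h2be and Hist1h2bg lie well above it in control (steps of 16.2, 11.6, 6.30 and 6.26), and most other genes lie far above it.

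The step was not narrow everywhere. Hist1h2bc had the largest one, 16.2 in control and 10.1 in the knockout. Its ratios were 0.0664 in control and 0.213 in the knockout at the TSS. The TES values were 1.07 and 2.14. Hist1h2bc lies at chr13:23684199-23692908 on the plus strand (GRCm38), and its GENCODE model spans 8710 bp although its only annotated transcript has 1156 bases. Hist2h2be, on the plus strand of chromosome 3 from 96221119 to 96223738, had the next highest TES ratios, 0.783 in control and 0.907 in the knockout. Its RefSeq model is 2667 bp long. In the knockout the TES ratio of each of these genes equals that of 1 other gene exactly, while their control ratios do not. No stem-loop match was found in the annotated transcript of either gene. The step of Hist2h2be was 6.30 in control and 4.18 in the knockout. Hist1h2ag (11.6) and Hist1h2bg (6.26) also had control steps above 6, the former from the lowest TSS ratio of all histone genes.

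Gene length was set beside these TES ratios. The RefSeq models (GRCm38.p6) of the 38 genes had a median length of 496.5 bp, from 375 to 8282 bp, and 35 were at most 1000 bp long. The 31 of these 35 listed at the TES had a control median of 0.210, between 0.0863 at Hist1h2bf and 0.478 at Hist1h2bg. The 20 other protein-coding genes of at most 1000 bp in RefSeq had a TES median of 0.696, from 0.152 to 1.63, so both ranges overlapped. Their median control step was 7.56 over 19 genes, against 1.51 over 29 short histone genes. With the limit of 1000 bp taken in GENCODE instead, the other protein-coding genes had a lower median control step. It was 2.81 over 12 genes, from 0.974 to 15.1, so the size of this contrast depends on the annotation. Cytosolic ribosomal protein genes, which are strongly transcribed, had a TES median of 0.909, and their lowest control value, 0.565, was above that of each short histone gene. Their median step was 10.3. In the 4 listed replication-independent variant genes (H2afz, H3f3a, H1f0 and Cenpa), whose mRNA carries a poly(A) tail, the control TES ratio lay between 0.464 and 1.48 and the median step was 16.5. Which end model the authors used for each gene is not given in the sources used here. The width of the TSS and TES windows is not given either, and in a gene of about 500 bp they may share sequence. What part window overlap has in the small step was not tested.

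**Figure D3:**
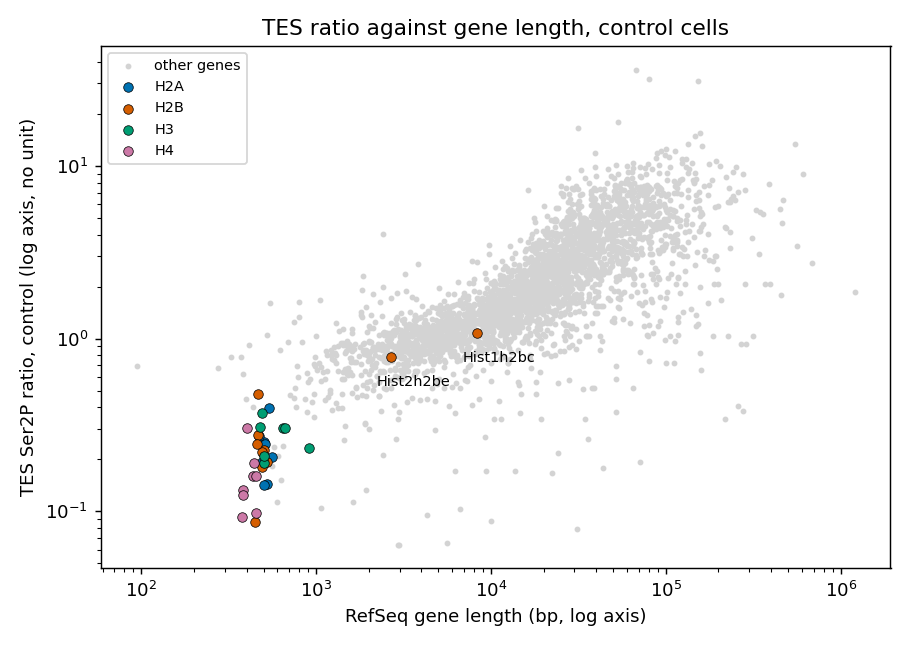
TES Ser2P ratio in control cells against RefSeq gene length, both axes log, for other genes (grey) and histone genes (coloured by type). The histone genes of at most 1000 bp lie between 0.0863 and 0.478, below most other genes, while the longer Hist1h2bc and Hist2h2be sit at 1.07 and 0.783.

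The distance from the stem-loop to the GENCODE end was also set beside the TES ratios. In 12 genes listed at the TES the stem-loop lay within 60 bases of the GENCODE end, and their control TES median was 0.186. In 8 genes with 61 to 500 bases behind the stem-loop the median was 0.268. In 6 genes whose model runs over 500 bases past it, the median was 0.192, and Hist2h4, with 1257 bases behind the stem-loop, had a ratio of 0.133. The 7 genes without a match had a median of 0.251. The ranges of these groups overlapped. Hist2h3c1 (over 500 bases) and Hist2h3c2 (61 to 500 bases) hold the same TES ratio, so the same measurement enters both of their groups. RefSeq ends some of the genes elsewhere, and the model of Hist2h4 is 1630 bp long in GENCODE and 384 bp in RefSeq. Because the end model used by the authors is not given, the groups need not differ in where the TES window lay. Whether the placement of the end has a part in these ratios was not tested.

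The TSS comparison asked how the ratio differed in cells without Carm1. Of the 36 histone genes above 0 in both conditions, 32 were higher in the knockout, against 85.8% of all genes. At least 1.5-fold, 18 of 36 (50%) were higher, against 71.2% of all 2859 genes compared, and 0 were lower, against 5.6%. These counts leave out Hist2h3c1 and Hist2h3c2, which were above 0 in control and listed at 0 in the knockout. With genes at 0 in 1 condition counted as well, 18 of 38 (47.4%) were higher, against 68.2% of all 3070 genes, and 2 of 38 (5.26%) were lower, against 10.2%. The 2 lower genes are Hist2h3c1 and Hist2h3c2, which hold the same values, and their control ratio also occurs at other genes. The median difference was 0.60 on the log2 scale (log2 of Carm1 KO over control), or 1.51-fold, and that of all genes was 1.17. Relative to all genes the histone median was thus -0.57, and 10 of the 36 lay above the median of all genes. Ribosomal protein genes were also below all genes, with 56.2% at least 1.5-fold higher and a median of 0.76. The 19 other protein-coding genes of at most 1000 bp in RefSeq were above them, with 89.5% and 1.46. With that limit taken in GENCODE, 13 genes were compared. Their share, 84.6%, was above that of all genes, and their median, 1.00, was below. How the libraries were scaled to each other is not known, so both readings are given: most histone genes were higher as deposited, and most lay below the median of all genes.

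H2A genes had the widest spread of log2 changes at the TSS, which rests on Hist1h2ag. The other H2A genes ran from -0.20 to 1.72, no wider than H2B genes (-0.05 to 1.91) or H4 genes (-0.41 to 1.86). Hist1h2ag, on the minus strand of chromosome 13 from 22042460 to 22042944, had a ratio of 0.0234 in control and 0.248 in the knockout, a log2 change of 3.41. Its control value is the lowest of the 38 genes and equals that of 4 other genes of the table exactly, so the size of this difference is uncertain. Hist1h2af followed with 0.143 and 0.473 (1.72), and Hist1h2ae with 0.0969 and 0.226 (1.22). Hist1h2ad had the highest ratios of all histone genes in both conditions, 0.574 and 0.971, and a change of 0.76. At the other end Hist3h2a had 0.122 in control and 0.106 in the knockout (-0.20). Of the 10 H2A genes 6 were at least 1.5-fold higher, a share below the 71.2% of all genes.

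Among H2B genes 5 of 10 passed 1.5-fold, also a share below the 71.2% of all genes. The largest difference was at Hist1h2bf, from 0.0563 to 0.212 (1.91), followed by Hist1h2bg, from 0.0764 to 0.249 (1.71), and Hist1h2bc (1.68). Both ratios of Hist1h2bf equal those of other genes, 3 in control and 9 in the knockout, and the knockout ratio of Hist1h2bg equals that of 1 other gene, so these sizes are uncertain too. Of the 5 that passed, 4 had lower control ratios than each of the 5 that did not, and Hist3h2bb-ps, with 0.180 in control and 0.281 in the knockout (0.64), did not. The control ratio is the divisor of the change, so a low one raises the change by itself and this ordering is partly built in. Hist1h2bj had 0.202 and 0.227 (0.17), Hist2h2bb 0.176 and 0.196 (0.15), and Hist1h2bh 0.138 and 0.133 (-0.05). In Carm1 KO cells the H2B ratios lay between 0.133 and 0.281.

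H3 genes, which encode a core histone of the nucleosome's central tetramer together with H4, had the smallest median change at the TSS, 0.31 over 5 genes. Only Hist2h3b passed 1.5-fold among them, with 0.139 in control and 0.276 in the knockout (0.99). Hist1h3c, Hist1h3e and Hist1h3g lay between 0.25 and 0.32, and Hist1h3a had 0.234 and 0.199 (-0.23). None of the 5 lay above the median of all genes. Hist2h3c1 and Hist2h3c2 were both listed at 0.0935 in control and at 0 in the knockout, so no fold was computed. The control ratio of each equals that of 11 other genes exactly, the other of the pair among them, so this drop is uncertain. Hist2h3c1 and Hist2h3c2 are neighbours on chromosome 3 with the same values at the TES too, 0.304 and 0.4995, and cannot be told apart in these data.

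H4 genes divided at the TSS. Hist1h4b had 0.0680 in control and 0.246 in the knockout (1.86), Hist1h4c 0.0807 and 0.216 (1.42), Hist1h4f 0.0983 and 0.250 (1.34) and Hist2h4 0.122 and 0.226 (0.89). These 4 of 8 passed 1.5-fold, against 71.2% of all genes. The knockout ratio of Hist1h4b equals that of 2 other genes. Below it were Hist1h4a (0.55), Hist1h4i (0.47) and Hist4h4 (0.39), the only listed gene of the HIST4 locus. Hist1h4h, which encodes H4 as the others do, was lower in the knockout, with 0.122 and 0.0915 (-0.41), ratios that it shares with 3 and 5 other genes. The 3 H1 genes were all higher, Hist1h1e from 0.0905 to 0.219 (1.28), Hist1h1c from 0.107 to 0.201 (0.91) and Hist1h1d from 0.0869 to 0.122 (0.49).

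At the TES, which was measured in the same libraries, all 33 histone genes had a higher value in the knockout, against 84.3% of all genes. At least 1.5-fold, 19 of 33 (57.6%) were higher, against 66.7% of all 3016 genes, and 0 were lower, against 7.13%. The median difference was 0.71 on the log2 scale, 1.64-fold, and that of all genes was 0.85, which leaves -0.14 relative to all genes. As deposited, the histone share was near that of all genes. With a pseudocount of 0.1 it was 39.4%, against 64.6% of all genes. Against the median of all genes 13 of 33 lay above. Among other genes no longer than the longest histone gene (8710 bp), 83.5% were at least 1.5-fold higher and 0.484% lower at the TES. Most histone genes are far shorter than that limit. Of the 20 other protein-coding genes of at most 1000 bp in RefSeq, 60% were higher and 0 lower, with a median of 0.66. These values were close to those of the histone genes. For ribosomal protein genes they were 78.8%, 0 and 0.79.

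By type, H4 genes had the largest TES median, 1.11, with 6 of 8 at least 1.5-fold higher, against 66.7% of all genes, and 6 of 8 above the median of all genes. Hist1h4b had 0.0980 and 0.301 (1.62), Hist1h4c 0.0923 and 0.248 (1.43) and Hist1h4h 0.161 and 0.373 (1.22). The smallest H4 difference was at Hist1h4i, 0.304 and 0.364 (0.26). In Carm1 KO cells the 8 H4 genes lay within 0.248 to 0.373, a narrower range than the control one.

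H3 genes had the smallest TES median, 0.45, and 0 of 7 lay above the median of all genes. Hist1h3g had 0.373 and 0.460 (0.30), Hist1h3c 0.308 and 0.389 (0.34) and Hist2h3b 0.210 and 0.267 (0.35). The 2 of 7 H3 genes past 1.5-fold, against 66.7% of all genes, were Hist2h3c1 and Hist2h3c2 (0.71 each), which hold the same values and count as 1 measurement. The ranges of H3 (0.30 to 0.71) and H4 (0.26 to 1.62) overlapped, and genes of 1 type are not replicates.

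H2A genes had a TES median of 0.80 with 6 of 8 past 1.5-fold. Over all 8 the changes ran from Hist1h2ag (0.272 and 0.386, log2 change 0.50), which did not pass, to Hist1h2ah (0.144 and 0.376, 1.39). H2B genes had a median of 0.60 with 5 of 10 past 1.5-fold. The share of all genes past it was 66.7%. Hist1h2bf differed most among them, from 0.0863 to 0.224 (1.37), then Hist1h2bb, from 0.181 to 0.366 (1.02). Hist1h2bh, on the minus strand of chromosome 13 from 23541714 to 23543392, had 0.1921 in control and 0.1922 in the knockout. Hist1h2bh thus had nearly equal values in both conditions at both ends.

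**Figure D4:**
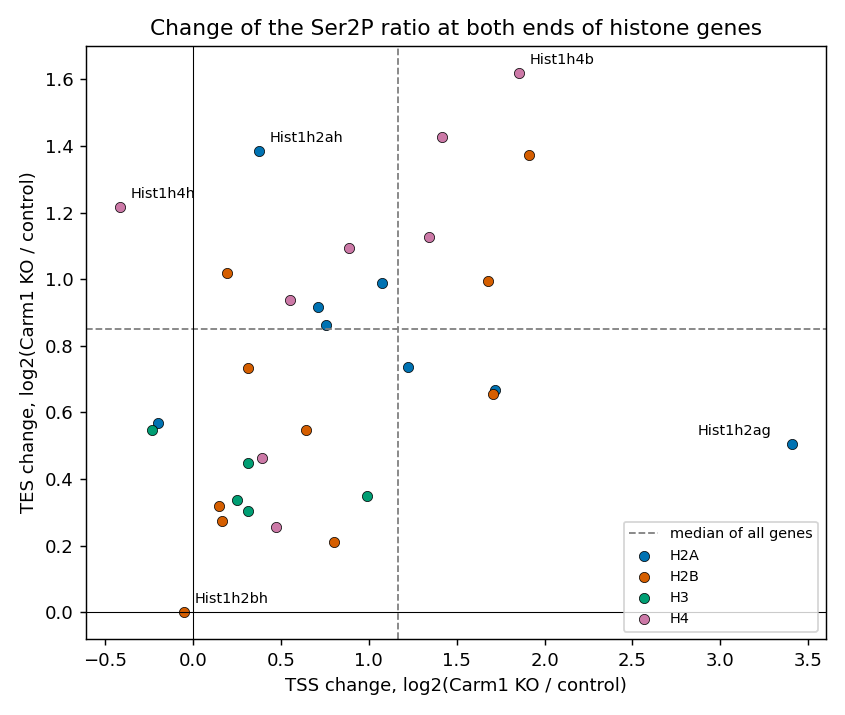
Log2(Carm1 KO / control) at the TES against that at the TSS for the 31 histone genes above 0 at both ends, coloured by type, with dashed lines at the medians of all genes (1.17 and 0.85) and solid lines at 0. All points lie at or above 0 on the TES axis, H3 genes lie left of and below the dashed lines, and Hist1h2ag stands alone at 3.41 on the TSS axis.

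By cluster, HIST1 genes had median changes of 0.63 at the TSS over 28 genes and 0.80 at the TES over 24. HIST2 genes had 0.80 over 5 and 0.53 over 6. At least 1.5-fold, 14 of 28 HIST1 genes and 3 of 5 HIST2 genes were higher at the TSS, and 16 of 24 and 3 of 6 were at the TES. All genes stood at 71.2% and 66.7%, so the HIST1 share at the TES is that of all genes. Within HIST1, the 5 genes between 22035164 and 22043676 on chromosome 13 had medians of 0.37 and 0.50. The 22 genes between 23531050 and 23762386 had 0.83 at the TSS, and 19 of them had 0.92 at the TES. The smaller group contains Hist1h2ag, the largest TSS change, and its other members lay between 0.17 and 0.47. The pseudogene Hist1h2al, counted in HIST1 by its symbol, lies apart from both groups, from 51202727 to 51203065. Its TSS change was 0.01. The 2 HIST3 genes, Hist3h2a and Hist3h2bb-ps, had TES changes of 0.57 and 0.55.

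A scale factor that is the same at both ends would drop out of the step. Between conditions the step was larger in the knockout in 17 of 31 histone genes (54.8%), against 36.6% of all genes. Its median log2 change was 0.05 in histone genes and -0.40 over all genes, so the typical gene had a smaller step in the knockout. Histone genes divided nearly evenly. With pseudocounts, 0.01 at the TSS and 0.1 at the TES, their median step went from 2.28 in control to 2.04 in the knockout. That of all genes went from 20.4 to 17.4. In 65 ribosomal protein genes the median log2 change of the step was 0.06. In the 19 other protein-coding genes of at most 1000 bp in RefSeq the median was -0.72. With that limit taken in GENCODE it was -0.26 over 12 genes. Over 780 other genes no longer than the longest histone gene (8710 bp) it was -0.17. The extremes among histone genes were Hist1h4h, whose step went from 1.32 to 4.08, and Hist1h2ag, from 11.6 to 1.56. Where the TSS and TES windows of a short gene share sequence, its step is held near 1 in both conditions and can change little. What part this has in the small median change of the histone genes was not tested.

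H2A and H2B genes often lie head to head, and 7 such pairs had both genes listed, with 172 to 301 bases between their starts. Because the strand setting of the counting is not given in the sources used here, reads of partners cannot be assigned with certainty. The partners' values were not equal, though some of the differences rest on ratios that other genes share exactly. Hist1h2ag and Hist1h2bj, 269 bases apart, had control TSS ratios of 0.0234 and 0.202 and Carm1 KO ratios of 0.248 and 0.227. Hist1h2ad and Hist1h2bf, 184 bases apart, had 0.574 and 0.0563 in control and 0.971 and 0.212 in the knockout. The control ratio of Hist1h2ag equals that of 4 other genes. The ratios of Hist1h2bf equal those of 3 other genes in control and 9 in the knockout. The pair Hist2h2ac and Hist2h2be lay closer together, at 0.141 and 0.124 in control and 0.194 and 0.217 in the knockout. Control ratios were also close for Hist1h2ac and Hist1h2bc (0.0599 and 0.0664) and for Hist1h2ae and Hist1h2bg (0.0969 and 0.0764). They were 0.0647 and 0.159 for Hist1h2ah and Hist1h2bk, and 0.122 and 0.180 for Hist3h2a and Hist3h2bb-ps. In 5 of 7 pairs the H2B gene had the larger log2 change, the exceptions being Hist1h2ag with Hist1h2bj and Hist1h2ah with Hist1h2bk.

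**Figure D5:**
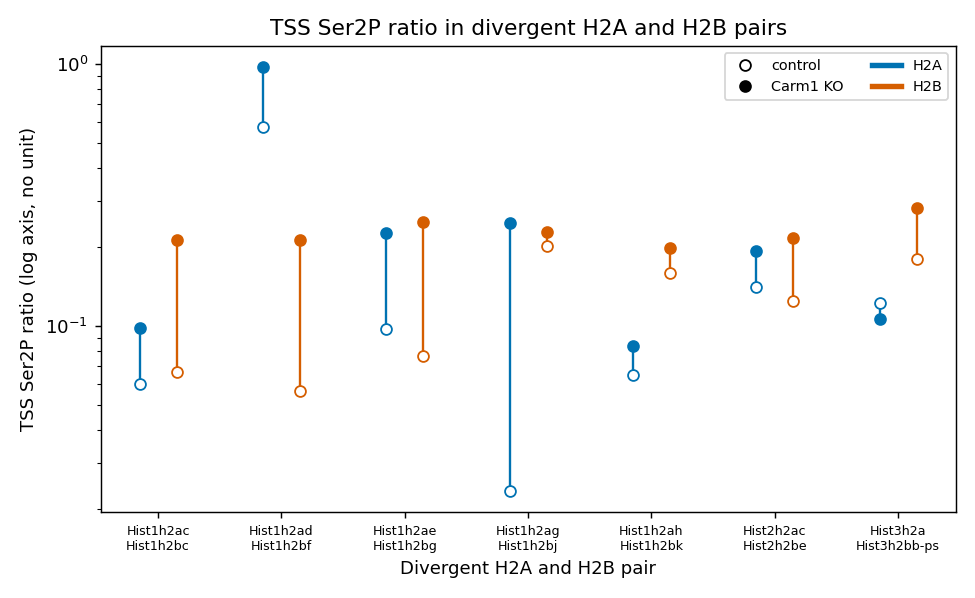
TSS Ser2P ratio (log axis) of the H2A gene (blue) and the H2B gene (orange) of each of 7 head-to-head pairs, open points for control and filled points for Carm1 KO. Hist1h2ag moves from 0.0234, a value that 4 other genes share, to 0.248. Its partner Hist1h2bj stays between 0.202 and 0.227, and Hist3h2a is the one gene shown that is lower in the knockout.

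Promoter sequences from RefSeq (GRCm38.p6, 250 bases before to 50 after the start) were found for 32 of the 38 genes and searched on both strands for 3 motifs. The TATA box was searched as TATAAA. The CCAAT box was searched by its name's letters. The octamer, which the factor Oct-1 is known to bind, was searched as ATTTGCAT. CCAAT was in 27 of 32 histone windows (84.4%) and in 37.9% of all 27025 promoters. TATAAA was in 15 (46.9%) and in 14.2% of all promoters, and the octamer in 10 (31.3%) and 1.75%. The octamer was found in 6 of 9 H2A and 4 of 7 H2B windows and in 0 of 16 windows of the other types. CCAAT was in each of the 25 windows of H1, H2A, H2B and H3 genes and in 2 of 7 H4 windows. The 3 motifs do not overlap one another by their letters in the promoters printed here. A match is a description of the letters, and the windows of head-to-head partners share sequence.

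The 250 bases before the RefSeq start of the H2A gene with the largest TSS change and of an H2B gene with all 3 motifs are printed with the matches in capitals. The Hist1h2ag window lies at chr13:22042950-22043199 on the minus strand and reads across the space shared with Hist1h2bj. It holds 5 CCAAT matches, of which ATTGG is the other strand, and neither of the other motifs. The Hist1h2bg window lies at chr13:23571150-23571399 on the plus strand, with the octamer starting 59 bases and TATAAA 43 bases before the start.
Hist1h2ag: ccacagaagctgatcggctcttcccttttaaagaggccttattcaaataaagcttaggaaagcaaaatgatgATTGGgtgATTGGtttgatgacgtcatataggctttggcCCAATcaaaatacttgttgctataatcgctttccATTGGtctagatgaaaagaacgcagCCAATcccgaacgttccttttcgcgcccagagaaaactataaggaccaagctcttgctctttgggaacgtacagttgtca
Hist1h2bg: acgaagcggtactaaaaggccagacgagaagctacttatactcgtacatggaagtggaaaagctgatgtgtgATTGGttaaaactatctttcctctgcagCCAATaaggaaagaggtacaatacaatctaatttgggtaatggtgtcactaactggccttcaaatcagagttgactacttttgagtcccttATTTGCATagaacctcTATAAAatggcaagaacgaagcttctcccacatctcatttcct

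Many histone genes are near copies of each other, which bears on which gene a short read is given to. GENCODE M21 names 70 genes with these symbols, and 38 are in the tables used here. Of the words of 30 bases in each gene's transcripts, the share found in no other histone gene had a median of 48.1% in the 38 listed genes and 21.2% in the other 32, which were not analysed here. The lowest share among those listed was 8.78% at Hist1h2ah, then 13.8% at Hist1h2af and 15.1% at Hist1h3e. Values of single genes with low shares are uncertain, since the authors' handling of reads with several matches is not given in the sources used here. In addition, 13 of the 38 genes had a TSS ratio in 1 or both conditions that equals another gene's exactly, and 4 of 33 did at the TES. Another annotated gene starts or ends within 1 kb of the TSS in 28 of 38 genes and of the TES in 20 of 33.

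A list of 37 symbols was searched for factors of histone mRNA processing and histone gene transcription and for S phase cyclins and kinases, and 12 were listed. At each end 9 of the 12 passed 1.5-fold upward, and 1 downward. All genes stood at 71.2% upward and 5.6% downward at the TSS, with 66.7% and 7.13% at the other end. Slbp, the stem-loop binding protein, had 0.466 in control and 1.01 in the knockout at the TSS (1.12). At the TES it had 1.72 and 2.83 (0.72). Nelfb, a subunit of the pausing factor NELF, had the largest TSS change (2.97), and Cpsf2, part of the cleavage complex, the smallest (-0.82). At the TES Ccne2, a cyclin of S phase entry, had the largest (1.60) and Cstf3, of the cleavage stimulation factor, the smallest (-1.48). Npat, Casp8ap2 and Lsm11 were not analysed here. Of 25 histone chaperone symbols 10 were listed, of which 7 were at least 1.5-fold higher at the TSS (71.2% of all genes) and 5 at the TES (66.7%), with 0 lower at either (5.6% and 7.13%). The TSS share is near that of all genes. Nap1l4 (2.21) and Rbbp4 (-0.05) were the extremes at the TSS, and Hjurp (1.69) and Rbbp4 (-0.51) at the TES. Of 13 variant symbols 4 were listed, with H1f0 (1.33) and H2afz (-0.26) at the extremes of the TSS and H1f0 (1.00) and Cenpa (0.77) at those of the TES.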

How the data were processed

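The deposited data are 2 tables, for the TSS and the TES, made by the authors from mNET-seq libraries of control and Carm1 KO B16F10 cells. Each gives the authors' linear ratio of Ser2P signal per gene and condition, per the file headers, and the difference between both, which was not used. Per the submitters' processing notes, cutadapt 1.18 and TopHat2 2.1.1 were used, and mm10 and GRCm38 are named as builds. No source used here gives the windows, the divisor, the scaling between libraries, the strand setting or how genes were chosen. Columns were assigned to control and Carm1 KO by their names.

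Changes are log2 of the Carm1 KO ratio over the control ratio, without a pseudocount, for genes above 0 in both conditions. A gene was called at 1.5-fold, and counts were read beside the share called over the whole table. With 1 library per group no test was run and depth is unknown. Every histone gene could be named, with both ratios for the extremes of each type at each end. Of the other lists, extremes and key processing factors were named. Members and lists were chosen with earlier results of these data known. Coordinates, transcripts and neighbours came from GENCODE M21 on GRCm38, and lengths and promoters from RefSeq GRCm38.p6. All 38 histone symbols matched in both. Calculations used Python 3.11.15, pandas 2.3.3 and numpy 2.4.6, and were tested on simulated data. Alternatives were another threshold, centring, pseudocounts, a filter on low values and subsets of the histone genes.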

Additional observations from a re-analysis of the deposited data

How the results depend on the processing

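No paired analysis was possible because each group is 1 library. Without replicates a median was taken as unchanged only where its 2 decimals were (3 digits for the step), and a share where it stayed within the exact 95% binomial interval of the reported one. Of 44 recalculations 19 were unchanged by these rules. Among the unchanged are the share and median at the TSS under the filter on low values. It kept all 36 histone genes there, so these values could not differ. Subtracting the median of all genes turned the histone medians to -0.57 at the TSS and -0.14 at the TES, and left 8.33% of histone genes (28.6% of all genes) at least 1.5-fold higher at the TSS and 3.03% (11.6%) at the TES. At 2-fold, 30.6% were higher at the TSS (56.7% of all genes) and 24.2% at the TES (37.9%). The TSS median of 0.60 became 0.49 with a pseudocount of 0.01, 0.49 without tied ratios, 0.63 in HIST1 genes, 0.70 without genes that have a neighbour within 1 kb, 0.64 without genes of few unique words and, an alternative added after seeing the data, 0.63 without pseudogenes. It stayed below that of all genes in each. The TES median of 0.71 became 0.55 with a pseudocount of 0.1, 0.67 without tied ratios, 0.80 in HIST1 genes, 0.57 without near neighbours and, also added afterwards, 0.69 with Hist2h3c1 and Hist2h3c2 counted once. The TES share became 39.4% with that pseudocount (64.6% of all genes), 46.2% without near neighbours (66.7%) and 66.7% in HIST1 genes (66.7%). In the other subsets it lay between 53.3% and 59.4%. These shares counted as unchanged because the interval, which treats genes as independent, ran from 39.2% to 74.5%. Counting genes at 0 in 1 condition, likewise added after seeing the data, left the shares at 47.4% and 57.6%. The filter on low values left 0 histone genes at the TES, where the highest mean of both ratios, 1.608 at Hist1h2bc, lay just under the lower quartile of all genes, 1.611. The control step of 1.53 became 2.28 with pseudocounts, 1.49 in HIST1 genes, 1.33 without tied ratios and 1.52 without pseudogenes, and that of Carm1 KO cells 2.04, 1.54, 1.41 and 1.54.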
